A study of Mus musculus with 9 samples.

Results

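Testis RNA taken after an injection of CW069 was compared with testis RNA taken after an injection of phosphate-buffered saline (PBS), the Control group. The members are 6 of the 9 libraries of the series, 3 per group, chosen by their labels, with all 19991 genes of the count table, of which 15834 had enough counts to be tested. All libraries came from mice of ICR, an outbred stock whose animals are not genetically identical, at 8 weeks of age. CW069 was injected at 50 µM. The remaining 3 libraries, from mice injected with AZ82 at 1 µM, enter the estimate of spread between libraries and a side comparison. The labels do not say whether the 3 samples of a group came from separate animals or how long after the injection the testis was taken. The p-values therefore rest on the spread among these samples, part of which may be technical.

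CW069 and AZ82 are known as inhibitors of KIFC1, a kinesin-14 motor that walks towards the minus ends of microtubules, focuses spindle poles and clusters centrosomes. In the testis, meiotic divisions and the shaping of the spermatid head both depend on microtubule arrays, and KIFC1 is known there for its place in spermatid nuclear shaping. The tissue also holds somatic cells: Sertoli cells nurse the germ cells inside the tubules, while Leydig cells between the tubules turn cholesterol into testosterone and macrophages lie beside them. In RNA from a whole testis, fewer cells of a type and less RNA per cell cannot be told apart.

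The 9 libraries held 13856070 to 18102593 counts, with 18314 to 18553 genes counted in each, and 2 features of them touch the results. CW069 1 and 2 were the closest of all 36 pairs of libraries: 14 genes averaging 1 CPM or more (CPM, read counts scaled to a common library size with TMM factors) lay 2-fold or more apart in them, against 84 to 468 in the other 35 pairs. Their counts differed by more than read-counting noise (chi-square per degree of freedom 3.48, against 4.76 to 34.8), which 2 preparations of 1 sample could also do. They were kept apart because the labels list them as separate samples. With the 2 summed to 1 sample edgeR called 0 genes, as it did with them apart. That fit has fewer samples, so it cannot show whether they are independent, and DESeq2 was not run with them summed. Control 3 was low in transcripts of late spermatids (Prm2 at 1174 CPM, against 2720.1 to 4417 CPM in the other 5 libraries of the comparison). Defining markers of epididymis were almost missing, with Crisp1, Lcn5 and Adam7 at 0 to 4 counts per library, and so were those of T and B cells, with Cd3e and Cd79a at 0 to 7 counts.

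**Figure D1:**
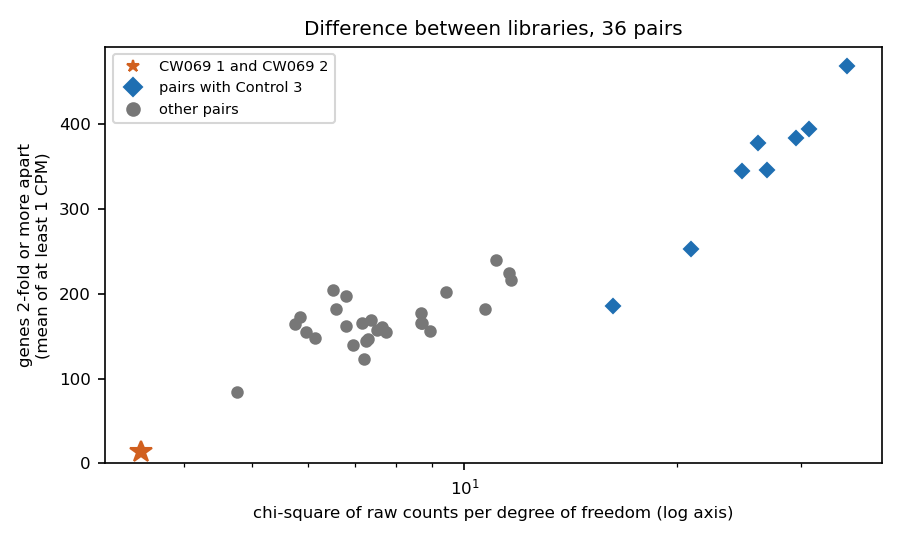
Each of the 36 pairs of libraries is a point, placed by the chi-square of its raw counts per degree of freedom (log axis) and by the number of genes 2-fold or more apart. CW069 1 and 2 sit alone at the lower left with 14 such genes, and the pairs that include Control 3 reach the upper right with up to 468.

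The transcript of the target itself came first. Kifc1 stood at 8.42, 9.56 and 7.98 CPM in Control 1, 2 and 3 and at 8.97, 9.24 and 10.5 CPM in CW069 1, 2 and 3, an order of libraries kept for all values that follow. Control and CW069 overlapped, and the log2 fold change of CW069 over Control was 0.15 ± 0.12 SE, edgeR adjusted p = 0.777, with a 95% interval of -0.11 to 0.40 and values of 0.07 without CW069 3 and 0.23 without Control 2. The closely related copy Kifc5b, whose reads may be counted for Kifc1 and the reverse, stood at 9.73, 9.24 and 11.1 CPM in Control and 9.31, 9.38 and 10.5 CPM after CW069. Kifc3, a kinesin-14 motor of epithelial junctions, was at 63.0, 72.9 and 56.6 CPM in Control and 68.7, 76.9 and 76.2 CPM after CW069 and also overlapped.

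Across all genes the CW069 and Control testes were close. In edgeR's quasi-likelihood test, 0 of 15834 genes (0%) reached an adjusted p under 0.05, and the smallest adjusted p was 0.114. At an unadjusted p under 0.05 there were 1162 genes, 7.34% of those tested, with 574 higher (3.63%) and 588 lower (3.71%) after CW069. DESeq2, another count model, called 28 genes (0.177%), 14 in each direction, and limma-voom called 0. The lower genes of smallest p in DESeq2 were Slc1a7, Hsd3b6 (DESeq2 adjusted p = 9.76e-07), Zmynd8 (0.000934), Ifi204, Snx15 and LOC115488029, and the higher ones were Dchs1 (0.000857), Ankrd44 (0.00206), Zmiz2, Galnt17, Sik1 and Jund. No member of any list below passed in edgeR, so higher and lower describe the values of these libraries. With library sizes alone in place of TMM factors the unadjusted genes split into 336 higher and 866 lower, so the balance of directions rests on the scaling, while the lists described next are read against all genes. In 971 genes (6.13%) the lowest CW069 library lay above the highest Control library, and in 1147 (7.24%) the highest CW069 library lay below the lowest Control library. These shares moved with expression level: among the 2501 genes over 100 CPM, 12.4% were higher without overlap and 2.44% lower, and among the 7416 genes between 10 and 100 CPM, 5.30% and 8.52%. At the median gene, the 95% interval reached 0.28 on the log2 scale to either side of the estimate, a factor of 1.21.

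The gene with the smallest p was Slc1a7, which encodes a glutamate transporter known from the retina. It had 27, 28 and 22 counts in Control and 1, 2 and 0 counts after CW069, and was the single gene with at most 2 counts in every library of one group and at least 10 in every library of the other. The AZ82 libraries held 0, 1 and 0 counts of it, so near absence was shared by both inhibitor groups. Its edgeR adjusted p of 0.114 became 0.0466 with library sizes alone in place of TMM and 0.00243 in DESeq2, and the highest value over its alternatives was 0.817, without CW069 1.

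Above a mean level of 1 CPM, genes with no overlap between the groups were ranked by p, and Hsd3b6 and Ifi204 led the lower group. Separation of the groups in the 12 lower and 12 higher genes named here was thus fixed by that choice. Hsd3b6, a 3-beta-hydroxysteroid dehydrogenase of adult Leydig cells, was at 39.1, 60.7 and 63.3 CPM in Control and 25.0, 25.9 and 23.9 CPM after CW069, so the 3 treated libraries lay close together and below a Control group that was itself spread. Its log2 fold change was -1.13 ± 0.16 SE, edgeR adjusted p = 0.151, and without Control 1, its lowest Control library, it passed at an edgeR adjusted p of 0.00162. Ifi204, a DNA-binding protein of the interferon-inducible p200 family, was at 2.97, 3.47 and 3.19 CPM in Control and 0.890, 1.23 and 0.682 CPM after CW069, a difference of -1.79 ± 0.26 SE, edgeR adjusted p = 0.151. Snx15, a sorting nexin of endosomes, was at 17.7, 19.3 and 21.8 CPM in Control and 9.24, 9.92 and 8.06 CPM after CW069. Zmynd8, a reader of histone marks, was at 46.7, 29.3 and 31.7 CPM in Control and 11.8, 16.2 and 11.5 CPM after CW069 and was lowest in CW069 1 and 3. Esd, an esterase that hydrolyses S-formylglutathione, was at 19.7, 18.4 and 17.2 CPM in Control and 12.9, 11.2 and 13.7 CPM after CW069. Tsku, a small secreted leucine-rich proteoglycan, was at 8.42, 8.66 and 9.18 CPM in Control and 5.41, 6.02 and 3.92 CPM after CW069. The others of the 12 lower genes by this rule were Acadsb, Ivd and Cyp11a1, described with their pathways, and Gdap2, Akr1cl and Ptgr1, with log2 fold changes of -0.35, -0.37 and -0.40.

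The higher group, chosen by the same rule, was led by Ankrd44, a regulatory subunit of protein phosphatase 6. It was at 15.2, 18.0 and 14.1 CPM in Control and 23.4, 25.5 and 27.6 CPM after CW069 (log2 fold change 0.69 ± 0.11 SE, edgeR adjusted p = 0.296). Zmiz2, a coactivator of nuclear receptors, was at 257, 249 and 231 CPM in Control and 313, 326 and 378 CPM after CW069 (0.46 ± 0.08 SE, edgeR adjusted p = 0.396). Ttc22, a tetratricopeptide repeat protein, was at 4.76, 3.47 and 3.72 CPM in Control and 8.01, 7.39 and 6.59 CPM after CW069. Uck2, a kinase of uridine and cytidine, had the smallest log2 fold change of the 12 higher genes (0.28 ± 0.06 SE, edgeR adjusted p = 0.414). It was at 105, 102 and 103 CPM in Control and 125, 126 and 126 CPM after CW069. Rbm47, an RNA-binding protein and cofactor of RNA editing, was at 35.5, 45.1 and 36.2 CPM in Control and 51.6, 53.2 and 55.6 CPM after CW069. Galnt17, of the glycosyltransferase family that starts mucin-type O-glycans, was at 8.97, 13.0 and 8.51 CPM in Control and 18.6, 15.9 and 19.4 CPM after CW069. The DNA helicase gene Recql4 had a log2 fold change of 0.47, Amer2, a membrane regulator of Wnt signalling, 0.29, and Fetub, a secreted protease inhibitor, 1.32. Jund and Sik1 belong to the immediate early genes below, and Dchs1 is described with the genes carried by CW069 1 and 2.

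**Figure D2:**
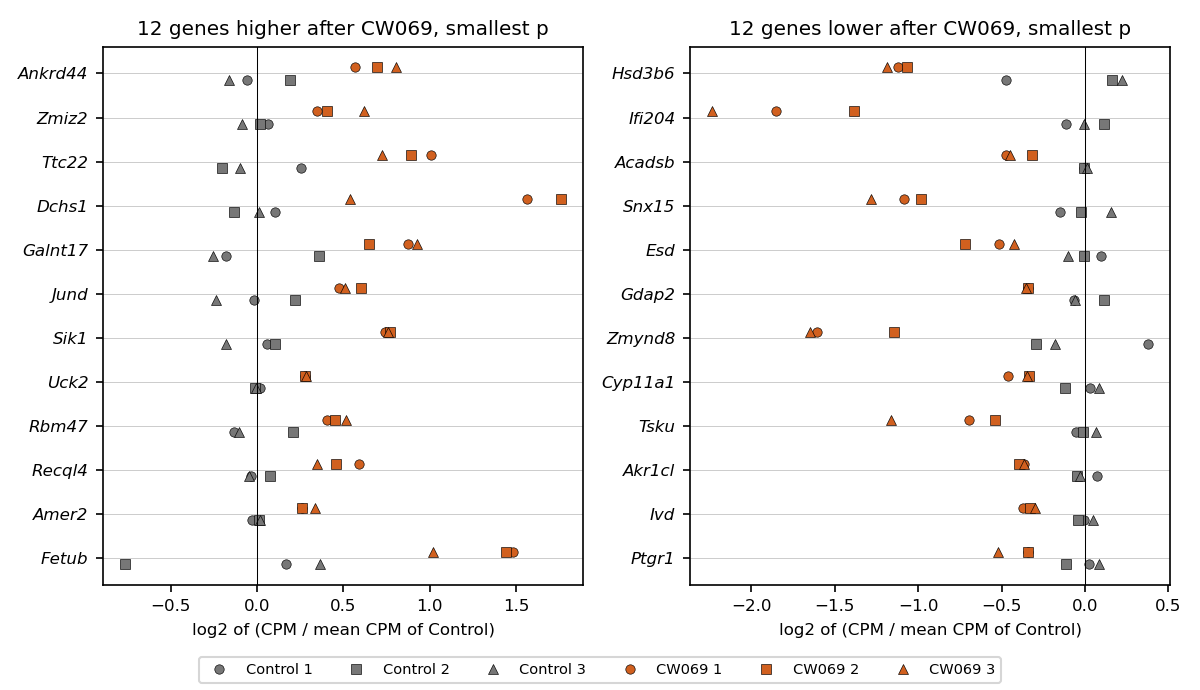
Each point is 1 library's CPM divided by the mean Control CPM of the gene on a log2 scale, for the 12 higher and 12 lower genes of smallest p among those with no overlap between groups. Orange CW069 points lie to one side of all grey Control points in each row by construction, and Dchs1 is the row in which CW069 3 stands apart from CW069 1 and 2.

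Genes of Leydig cells and steroid synthesis were lower after CW069 along most of the pathway. Of 40 tested members (44 were listed), 27 had a log2 fold change below 0 and 13 above, against 51.0% below among all genes. Among those above were the kallikreins Klk1b27, Klk1b21 and Klk1b24, at 0.89, 0.72 and 0.42, all with overlap between the groups. There were 13 members lower and 2 higher at an unadjusted p under 0.05, against 3.71% and 3.63% of all genes. Without overlap 14 (35.0%) were lower, against 7.24% of all genes, and 1 (2.50%) was higher, against 6.13%. The higher one was Nr4a1, which is also counted among the immediate early genes below. The median was -0.13, against -0.0038 for all genes. Taken per library as a log2 difference from the average of the 9 libraries, the list stood at a median of 0.11, 0.07 and 0.11 in Control and -0.04, -0.02 and -0.09 after CW069, so each treated library lay below each Control library. Without CW069 2 the number of members lower at an unadjusted p under 0.05 was 7, and the median ranged from -0.19 without Control 2 to -0.10 without Control 1.

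The steps of the pathway can be followed in order. Nr5a1, the nuclear receptor that governs steroidogenic genes, was at 51.4, 60.1 and 49.9 CPM in Control and 43.3, 45.9 and 43.4 CPM after CW069 (log2 fold change -0.28 ± 0.08 SE, edgeR adjusted p = 0.524). Star, which moves cholesterol into the mitochondrion, was at 180.2, 218 and 197 CPM in Control and 172, 158 and 151 CPM after CW069 (-0.31 ± 0.10 SE, edgeR adjusted p = 0.539). Cyp11a1, which cleaves the side chain of cholesterol, was at 373, 336 and 386 CPM in Control and 265, 289 and 287 CPM after CW069 (-0.38 ± 0.08 SE, edgeR adjusted p = 0.396). In all 3 genes the groups were separate, with gaps that were narrow for Star. Fdxr, the reductase that passes electrons to mitochondrial P450 enzymes, was at 51.1, 48.2 and 51.9 CPM in Control and 37.7, 45.1 and 31.3 CPM after CW069. Cyp17a1, which makes androgen precursors, was at 819, 943 and 819 CPM in Control and 699.6, 668 and 743 CPM after CW069 (-0.29 ± 0.10 SE, edgeR adjusted p = 0.573). Hsd3b1, the paralog of Hsd3b6 with which it can share reads, was at 226, 199 and 230.0 CPM in Control and 183, 191 and 172 CPM after CW069, lower without overlap but by far less than Hsd3b6. Hsd17b3, the last enzyme to testosterone, overlapped between groups, at 79.1, 71.0 and 50.8 CPM in Control and 54.2, 50.9 and 49.4 CPM after CW069. Lhcgr, the receptor for luteinizing hormone, also overlapped because of CW069 3, at 34.7, 42.2 and 50.4 CPM in Control and 26.4, 26.8 and 39.5 CPM after CW069. Insl3, a peptide hormone of Leydig cells, was at 8.15, 7.25 and 7.52 CPM in Control and 6.78, 6.64 and 5.96 CPM after CW069. Sult1e1, the sulfotransferase that inactivates estrogens, was at 48.0, 34.8 and 29.0 CPM in Control and 22.4, 23.1 and 16.9 CPM after CW069 (-0.85 ± 0.26 SE, edgeR adjusted p = 0.539). Cyp21a1, a steroid 21-hydroxylase known from the adrenal cortex, is not in the list and was looked at after its values were seen. It stood at 14.9, 7.32 and 6.58 CPM in Control and 2.40, 3.08 and 1.87 CPM after CW069 (-1.98 ± 0.46 SE, edgeR adjusted p = 0.447).

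NR5A1 is known to bind steroidogenic promoters, so the 250 bases upstream of the RefSeq start (build GRCm38.p6) were searched for its half-site AAGGTCA on both strands. Of 40 windows, which belong to 35 of the 44 listed genes, 3 held a match (Akr1b7, Klk1b21 and Sult1e1), against 4.08% of all 32851 windows in the table. No window was available for Star, Nr5a1 or Cyp17a1, so these were not searched. The Hsd3b6 window, shown since this gene had the smallest p of the list, held no exact match. Sult1e1 is shown as a lower member with a match, which stands in capitals on the opposite strand as TGACCTT and begins 113 bases before the start.
Hsd3b6, chr3:98814444-98814693, minus strand: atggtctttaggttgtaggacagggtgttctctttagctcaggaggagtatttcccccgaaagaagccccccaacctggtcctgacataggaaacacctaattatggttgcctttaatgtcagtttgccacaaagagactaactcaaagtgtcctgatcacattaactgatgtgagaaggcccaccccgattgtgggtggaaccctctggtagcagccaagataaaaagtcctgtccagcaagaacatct
Sult1e1, chr5:87591612-87591861, minus strand: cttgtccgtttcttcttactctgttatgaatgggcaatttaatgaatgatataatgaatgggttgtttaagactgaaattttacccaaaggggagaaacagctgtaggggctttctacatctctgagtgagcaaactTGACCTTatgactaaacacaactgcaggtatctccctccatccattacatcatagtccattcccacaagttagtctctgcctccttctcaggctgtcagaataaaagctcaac

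Of the 32 lists, that of branched-chain amino acid and fatty acid breakdown had the largest share of members lower without overlap after CW069. The lists were written with earlier results of these data known, so this rank is a description and no test. These pathways feed mitochondria with acyl-CoA units, and their flavin-dependent dehydrogenases share one electron carrier. All 43 listed genes were tested: 35 lay below 0 and 8 above, with a median of -0.20. At an unadjusted p under 0.05, 18 members were lower and 0 higher, against 3.71% and 3.63% of all genes. Without overlap 17 (39.5%) were lower, against 7.24% of all genes and 8.52% of genes between 10 and 100 CPM. The median level of the list against the mean of all libraries was 0.14, 0.05 and 0.12 in Control and -0.06, -0.04 and -0.11 after CW069, and the groups did not overlap. With each library left out in turn, 12 to 18 members were lower at an unadjusted p under 0.05, the fewest without Control 1, and the median ran from -0.23 to -0.16.

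By role, branched-chain amino acid genes held most of these. Of 21 such genes, 18 lay below 0, with a median of -0.20, and 10 were lower at an unadjusted p under 0.05 (3.71% of all genes were). Bcat2, the mitochondrial transaminase of the first step, was at 37.9, 34.8 and 39.0 CPM in Control and 32.0, 32.6 and 32.2 CPM after CW069 (log2 fold change -0.21 ± 0.07 SE, edgeR adjusted p = 0.539). Dbt, the core of the branched-chain keto acid dehydrogenase, was at 15.3, 12.8 and 16.2 CPM in Control and 12.3, 10.5 and 10.8 CPM after CW069 (-0.40 ± 0.12 SE, edgeR adjusted p = 0.539). Ppm1k, the phosphatase that activates that complex, was at 5.52, 5.78 and 5.25 CPM in Control and 4.04, 4.72 and 4.09 CPM after CW069, while Bckdk, the kinase that inhibits it, was at 12.1, 12.6 and 12.04 CPM and 11.8, 13.5 and 12.3 CPM and overlapped. The step after the complex is taken by a dehydrogenase for each amino acid, and all 3 were separate between the groups. Ivd, for leucine, was at 41.3, 40.4 and 42.9 CPM in Control and 32.0, 33.1 and 33.7 CPM after CW069 (-0.33 ± 0.07 SE, edgeR adjusted p = 0.438). Acadsb, for isoleucine, was at 41.4, 41.4 and 42.0 CPM in Control and 29.9, 33.3 and 30.4 CPM after CW069 (-0.41 ± 0.07 SE, edgeR adjusted p = 0.296). Acad8, for valine, was at 20.3, 19.1 and 19.0 CPM in Control and 15.4, 15.2 and 14.5 CPM after CW069 (-0.37 ± 0.10 SE, edgeR adjusted p = 0.524). Further down the leucine branch, Mccc1, the biotin-bearing subunit of methylcrotonyl-CoA carboxylase, was at 12.7, 10.7 and 12.7 CPM in Control and 8.42, 9.17 and 7.33 CPM after CW069, the lowest log2 fold change of the list (-0.54 ± 0.13 SE, edgeR adjusted p = 0.49). Its partner Mccc2 had -0.19 with overlap (-0.08 without Control 3), and Auh, the hydratase that follows, -0.37 without. On the valine branch Aldh6a1, methylmalonate semialdehyde dehydrogenase, was at 58.2, 50.6 and 52.3 CPM in Control and 45.8, 43.6 and 44.4 CPM after CW069. The enoyl-CoA hydratase Echs1, shared with fatty acid oxidation, was at 30.6, 28.8 and 23.5 CPM in Control and 20.7, 23.3 and 20.3 CPM after CW069 (-0.37 ± 0.11 SE, edgeR adjusted p = 0.539). The 4 propionate genes (Pcca, Pccb, Mmut and Mcee) all lay below 0 with a median of -0.12. Of these, 0 had an unadjusted p under 0.05, against 7.34% of all genes.

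The 3 electron carrier genes lay below 0 as well. Etfa, a subunit of the electron transfer flavoprotein, was at 27.3, 28.6 and 29.9 CPM in Control and 23.4, 24.4 and 22.6 CPM after CW069 (log2 fold change -0.29 ± 0.08 SE, edgeR adjusted p = 0.524). Etfdh, which hands these electrons to ubiquinone, was at 44.5, 38.3 and 42.0 CPM in Control and 35.4, 33.5 and 32.6 CPM after CW069 (-0.30 ± 0.07 SE, edgeR adjusted p = 0.514). The other flavoprotein subunit, Etfb, had -0.09 and overlapped.

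Of 15 fatty acid oxidation genes, 10 lay below 0 and 6 were lower at an unadjusted p under 0.05 (3.71% of all genes were). Cpt1a, the form of carnitine palmitoyltransferase best known from liver, was at 75.9, 69.5 and 70.6 CPM in Control and 58.8, 65.0 and 63.9 CPM after CW069 (-0.20 ± 0.08 SE, edgeR adjusted p = 0.646). Cpt1b, the form best known from muscle and here several times more abundant, stood above 0 without overlap, at 350.5, 359 and 380.2 CPM in Control and 381, 386 and 403 CPM after CW069 (0.10 ± 0.06 SE, edgeR adjusted p = 0.736). The paralogs thus lay on opposite sides of 0. The acyl-CoA dehydrogenases for very long, long and medium chains, Acadvl, Acadl and Acadm, had -0.27, -0.26 and -0.21, all without overlap, but Acadvl was -0.18 without CW069 3 and Acadl -0.17 without CW069 1. The Leydig list, whose cells use mitochondria heavily, was lower in the same libraries (median -0.13), and the Sertoli list was not (median -0.0028); their part in the metabolic values was not tested. In AZ82 against Control, which shares the Control libraries, the branched-chain genes had a median of -0.23 and the fatty acid oxidation genes -0.12.

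**Figure D3:**
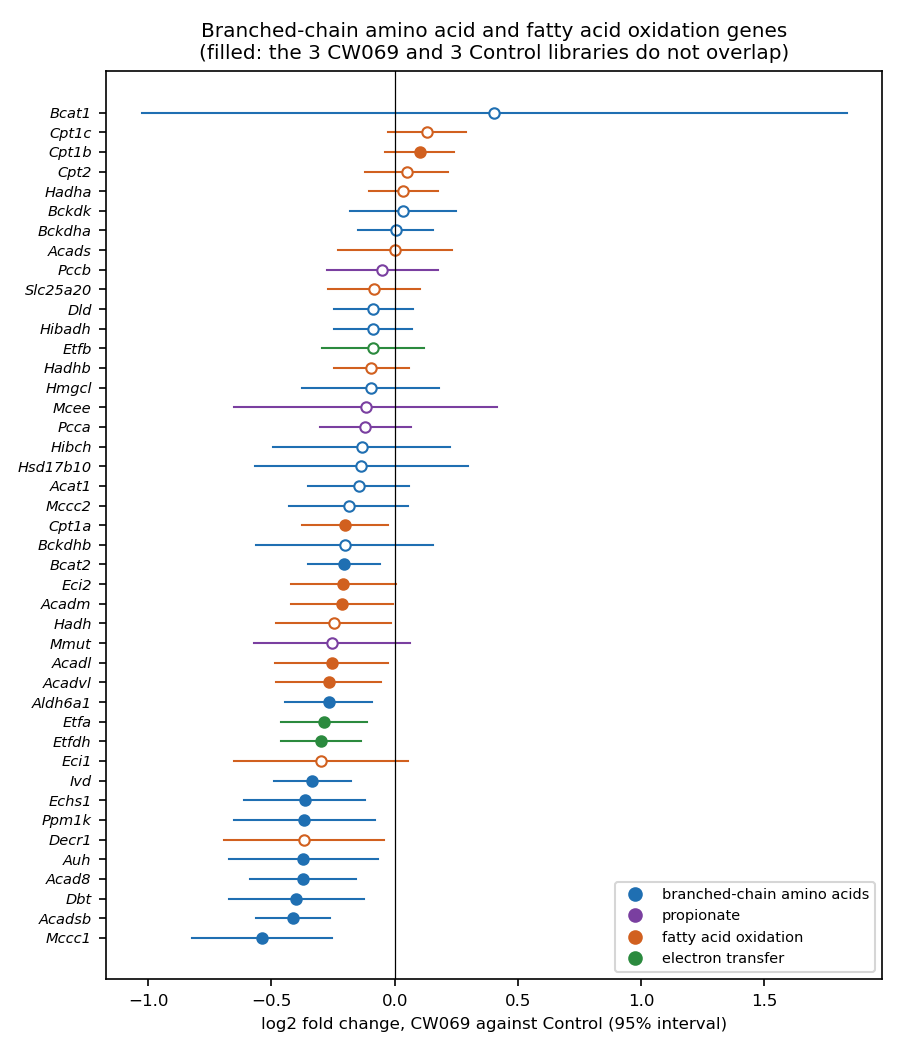
Log2 fold changes of CW069 over Control with 95% intervals are shown for the 43 genes, coloured by role, with filled points where the groups do not overlap. Of the 18 filled points, 17 lie left of 0 and Cpt1b alone lies right of it.

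Antioxidant genes of the glutathione, peroxiredoxin and thioredoxin systems were lower to a smaller degree. Of 42 members, 28 lay below 0, 7 were lower and 2 higher at an unadjusted p under 0.05, against 3.71% lower and 3.63% higher of all genes. Without overlap 11 (26.2%) were lower, against 7.24% of all genes, and the median was -0.07. Gstm2, a glutathione transferase, was at 287, 238 and 267 CPM in Control and 201, 211 and 207 CPM after CW069 (log2 fold change -0.36 ± 0.09 SE, edgeR adjusted p = 0.524). Gstm1, its abundant paralog that Leydig cells also express, was at 429.6, 429 and 439.9 CPM in Control and 345, 371 and 343 CPM after CW069. Txn1, thioredoxin, was at 15.5, 13.2 and 14.5 CPM in Control and 12.4, 11.2 and 8.92 CPM after CW069 (-0.41 ± 0.13 SE, edgeR adjusted p = 0.54). Slc7a11, the cystine importer that supplies glutathione synthesis, was at 8.84, 8.47 and 8.05 CPM in Control and 6.44, 6.57 and 6.70 CPM after CW069. The members above 0 without overlap were Keap1, which holds the regulator NRF2 in check, at 50.1, 55.5 and 59.9 CPM in Control and 65.1, 62.9 and 68.8 CPM after CW069, and Gpx4, a selenoprotein abundant in spermatids. Gpx4 was at 737, 759 and 584 CPM in Control and 839, 760.0 and 820.3 CPM after CW069, and without Control 3 its log2 fold change was 0.11 in place of 0.22. The stress-inducible genes Hmox1 and Nqo1 overlapped, at 16.4, 17.1 and 24.9 CPM and 2.97, 4.88 and 4.06 CPM in Control and 22.3, 22.2 and 17.4 CPM and 3.42, 3.70 and 3.35 CPM after CW069. The median of the list was -0.12 without Control 3.

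Interferon-stimulated and macrophage genes lay below 0 in most members, but both lists leaned on Control 1. Of 51 tested interferon-stimulated genes, 40 lay below 0. At an unadjusted p under 0.05, 6 were lower and 0 higher, against 3.71% and 3.63% of all genes. Without overlap 4 (7.84%) were lower, near the 7.24% of all genes. Apart from Ifi204, those 4 were Sting1, an adaptor of DNA sensing, Igtp, an immunity-related GTPase, and Ddx58, the RNA sensor RIG-I, with log2 fold changes of -0.58, -0.58 and -0.29 (-0.38 for Sting1 without CW069 3). The median of the list was -0.18, but -0.07 without Control 1 and -0.27 without CW069 2. Of 34 macrophage and antigen presentation genes, 29 lay below 0 and 5 were lower at an unadjusted p under 0.05 (3.71% of all genes were). Without overlap 4 (11.8%) were lower and 1 (2.94%) higher, against 7.24% and 6.13% of all genes. The median was -0.21, which was -0.08 without Control 1 and -0.31 without CW069 2. Their summed level was 794, 675 and 579.6 CPM in Control and 683, 674 and 632 CPM after CW069, so the groups overlapped. Fcer1g, the shared chain of Fc receptors, was at 4.28, 4.17 and 3.92 CPM in Control and 2.60, 2.94 and 1.59 CPM after CW069 (log2 fold change -0.81 ± 0.23 SE, edgeR adjusted p = 0.524). The resident macrophage markers Csf1r and Adgre1 overlapped, at 27.7, 21.6 and 24.2 CPM and 10.3, 7.19 and 6.52 CPM in Control and 20.5, 23.7 and 21.1 CPM and 7.88, 7.80 and 7.21 CPM after CW069.

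One set of antigen processing genes split the libraries without regard to group. Tap1, a peptide transporter of antigen presentation, was at 14.01, 14.3 and 3.06 CPM in Control and 3.29, 3.63 and 16.0 CPM after CW069. Psmb9, an immunoproteasome subunit encoded beside Tap1 in the major histocompatibility region, was at 3.87, 3.92 and 1.33 CPM in Control and 1.23, 0.821 and 3.24 CPM after CW069. CW069 3 thus stood with Control 1 and 2, and Control 3 with CW069 1 and 2. These genes were picked after their values were seen.

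Immediate early genes, which answer within minutes to growth factors, cyclic AMP or stress, lay above 0. Of 46 tested members, 34 were above 0. At an unadjusted p under 0.05, 6 were higher and 0 lower, against 3.63% and 3.71% of all genes. Without overlap 12 (26.1%) were higher, against 6.13% of all genes, and 3 (6.52%) were lower, against 7.24% of all genes. The median was 0.16, and with a library left out it ran from 0.12 without CW069 2 to 0.25 without CW069 1, with 4 to 10 members higher at an unadjusted p under 0.05. Jund, an AP-1 subunit, was at 43.5, 51.3 and 37.3 CPM in Control and 61.1, 66.7 and 62.8 CPM after CW069 (log2 fold change 0.53 ± 0.10 SE, edgeR adjusted p = 0.396). Sik1, a salt-inducible kinase that cyclic AMP induces and that restrains CREB coactivators, was at 18.4, 19.0 and 15.6 CPM in Control and 29.5, 30.2 and 29.9 CPM after CW069 (0.76 ± 0.15 SE, edgeR adjusted p = 0.396). Its 3 treated libraries lay close together, well above Control. Dusp5, a phosphatase that shuts off ERK, was at 8.28, 8.99 and 5.92 CPM in Control and 11.8, 11.6 and 10.8 CPM after CW069. Nr4a2, an orphan nuclear receptor, was at 0.483, 0.770 and 0.532 CPM in Control and 1.37, 0.958 and 1.14 CPM after CW069, and its paralog Nr4a1, known to act on steroidogenic promoters, was at 38.6, 41.0 and 32.9 CPM and 43.4, 43.2 and 54.1 CPM (0.32, but 0.21 without CW069 3). Srf, the serum response factor, was at 56.7, 55.6 and 61.3 CPM in Control and 64.4, 67.4 and 70.8 CPM after CW069. The classic members Fos and Jun overlapped (Jun was at 9.59, 8.41 and 8.78 CPM in Control and 8.97, 11.4 and 9.77 CPM after CW069), and Egr1 was high in a single treated library, at 7.05, 7.19 and 22.0 CPM after CW069 against 5.45, 7.70 and 5.72 CPM in Control. Myc stood below 0 without overlap, at 1.10, 1.22 and 1.40 CPM in Control and 0.342, 0.890 and 1.02 CPM after CW069 (-0.70 ± 0.38, but -0.37 without CW069 1).

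Windows of 250 bases before the start were available for 38 immediate early genes (53 windows, RefSeq, GRCm38.p6), and Sik1 was not among them. The cyclic AMP response element TGACGTCA, which reads the same on both strands, was present in 4 of them (Btg2, Dusp1, Maff and Plk2), against 1.55% of all windows, and in 0 of 40 Leydig windows. Plk2, a polo-like kinase of centriole duplication, is shown as the more abundant of the 2 that were higher without overlap, with Maff, at 12.01, 10.6 and 12.4 CPM in Control and 14.3, 14.5 and 14.5 CPM after CW069 (log2 fold change 0.31 ± 0.15 SE, edgeR adjusted p = 0.689), with the element in capitals 62 bases before the start.
Plk2, chr13:110394794-110395043, plus strand: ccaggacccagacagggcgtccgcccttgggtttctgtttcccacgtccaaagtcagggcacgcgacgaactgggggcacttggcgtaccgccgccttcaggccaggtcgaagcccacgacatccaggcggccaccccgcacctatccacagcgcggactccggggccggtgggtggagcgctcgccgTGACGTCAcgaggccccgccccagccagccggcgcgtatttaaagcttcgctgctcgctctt

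Spermatid genes lay slightly above 0, and here Control 3 counts. The core proteins that pack sperm DNA did not separate the groups: Prm2, a protamine, was at 4417, 3984 and 1174 CPM in Control and 3269, 2720.1 and 3190.2 CPM after CW069. The low value belongs to Control 3, and CW069 lay below Control 1 and 2. Tnp1, a transition protein, was at 1274, 1252 and 478 CPM in Control and 1094, 876 and 1075 CPM after CW069 and showed the same order. Tnp2 differed from both, at 2161, 2071 and 1020.1 CPM in Control and 2600.5, 2355 and 2332 CPM after CW069, above even Control 1, with a log2 fold change of 0.47 that was 0.20 without Control 3. Over the elongating spermatid and sperm list, 45 of 51 members lay above 0 with a median of 0.10, but without Control 3 the median was -0.09, and without Control 1 it was 0.25. The level of this list was 0.09, 0.07 and -0.62 in Control and 0.02, -0.11 and 0.07 after CW069 against the mean of all libraries, so the treated libraries lay within the Control range.

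The acrosome and round spermatid list kept its sign in the fits with a library left out. Of 52 members, 44 lay above 0, with 7 higher and 0 lower at an unadjusted p under 0.05 (3.63% of all genes were higher), and the median was 0.09 (0.05 without Control 3). Without overlap, 8 (15.4%) were higher, close to the 12.4% of all genes over 100 CPM, the range of the median member. Catsper4, a subunit of the sperm calcium channel, was at 97.6, 94.4 and 89.1 CPM in Control and 108, 112 and 109 CPM after CW069 (log2 fold change 0.23 ± 0.07 SE, edgeR adjusted p = 0.535). Dcst2, a sperm membrane protein needed at fertilization, was at 91.0, 81.1 and 91.2 CPM in Control and 102, 102 and 112 CPM after CW069 (0.27 ± 0.09 SE, edgeR adjusted p = 0.539). Acr, the acrosomal protease acrosin, overlapped at 185, 185 and 193 CPM in Control and 183, 201 and 212 CPM after CW069. In the axoneme and flagellum list 48 of 59 members lay above 0, 4 were higher and 0 lower at an unadjusted p under 0.05 (3.63% of all genes were higher), and the median was 0.08. Without overlap 10 (16.9%) were higher, again near the 12.4% of genes over 100 CPM, where its median member lies. Rsph3a, of the radial spokes, was at 174, 169 and 199.7 CPM in Control and 208, 244 and 239 CPM after CW069 (0.35 ± 0.09 SE, edgeR adjusted p = 0.524), and Cfap45, a protein inside flagellar microtubules, was at 200.2, 188 and 166 CPM and 223, 222 and 229 CPM (0.28 ± 0.08 SE, edgeR adjusted p = 0.524). Without CW069 3 the axoneme median was 0.04, and with library sizes alone in place of TMM it was 0.03.

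**Figure D4:**
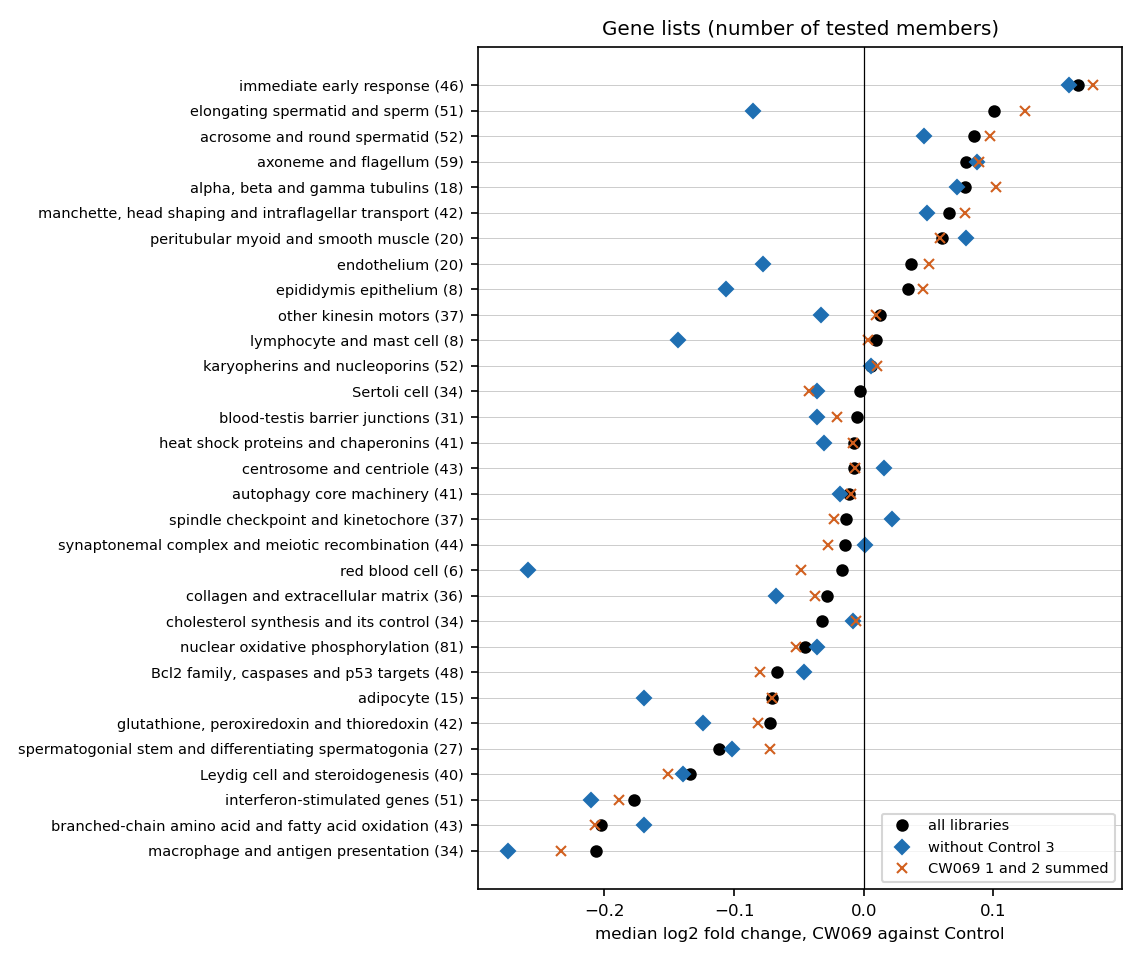
The median log2 fold change of each list is shown for all libraries (black), without Control 3 (blue) and with CW069 1 and 2 summed to 1 sample (orange crosses). The elongating spermatid list moves from 0.10 to -0.09 without Control 3, while the branched-chain and fatty acid, Leydig and immediate early lists keep their side.

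The microtubule machinery that KIFC1 belongs to showed small differences. In the manchette and head shaping list 31 of 42 members lay above 0, 4 were higher and 0 lower at an unadjusted p under 0.05 (3.63% of all genes were higher). Its 7 members higher without overlap (16.7%) are near the 12.4% of genes over 100 CPM, where its median member lies. The median was 0.07, but 0.040 without CW069 3 and 0.017 with library sizes alone. Among them Ift46, of intraflagellar transport, was at 107, 109 and 119 CPM in Control and 131, 120.4 and 131 CPM after CW069 (log2 fold change 0.19 ± 0.09 SE, edgeR adjusted p = 0.68), while Hook1, which links the manchette to the nuclear envelope, overlapped at 582, 582 and 379.6 CPM and 546, 500.0 and 540.0 CPM. Of 18 tubulins, 13 lay above 0 and 4 were higher at an unadjusted p under 0.05, against 3.63% of all genes. The share higher without overlap was 22.2%, against 6.13% of all genes, and the median of 0.08 was 0.033 with library sizes alone. Tubg2, a gamma tubulin of low level here, was at 1.31, 1.28 and 1.46 CPM in Control and 2.94, 3.01 and 1.70 CPM after CW069, higher mainly in CW069 1 and 2. Tubb3 was at 36.9, 33.6 and 33.5 CPM in Control and 39.0, 39.8 and 37.5 CPM after CW069, and Tuba8 at 281, 293 and 196 CPM and 334, 327 and 334 CPM, with a log2 fold change of 0.37 that was 0.21 without Control 3. Of 37 other kinesins 2 were higher and 0 lower at an unadjusted p under 0.05, close to the shares of all genes (3.63% and 3.71%). Without overlap the same 2 (5.41%) were higher and 4 (10.8%) lower, against 6.13% and 7.24% of all genes. The lower ones, Kif3c, Kif5b, Kif13b and Cenpe, were named after their values were seen and had log2 fold changes of -0.41, -0.14, -0.14 and -0.11. Of the 2 higher, Kif2b, a microtubule depolymerase abundant in testis, was at 736, 836 and 642 CPM in Control and 899, 885 and 922 CPM after CW069 (0.29 ± 0.09 SE, edgeR adjusted p = 0.539), and Kif3a, of the flagellar transport motor, was at 97.1, 98.8 and 105 CPM and 112, 110.3 and 109.6 CPM. Centrosome genes had a median of -0.0078 (19 of 43 above 0) and spindle checkpoint and kinetochore genes -0.01 (16 of 37 above 0). The checkpoint list held 5 members that were lower without overlap (13.5%, against 7.24% of all genes), among them Cdc20, which activates the anaphase-promoting complex, at 125, 119 and 139 CPM in Control and 118, 116 and 117 CPM after CW069 (log2 fold change -0.13 ± 0.08, and -0.06 without Control 3). Of the members of the checkpoint list, 0 were higher and 1 lower at an unadjusted p under 0.05, against 3.63% and 3.71% of all genes.

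Meiotic genes and the other somatic cells differed little, while spermatogonial genes leaned lower. Meiotic genes had a median of -0.01, with 0 of 44 members at an unadjusted p under 0.05, against 7.34% of all genes. Sycp3, of the synaptonemal complex, was at 97.5, 113 and 109 CPM in Control and 108, 97.0 and 98.8 CPM after CW069. Of 27 spermatogonial genes 18 lay below 0, and their median of -0.11 was -0.04 without Control 2. Without overlap 4 (14.8%) were lower and 2 (7.41%) higher, against 7.24% and 6.13% of all genes. At an unadjusted p under 0.05, 2 were lower and 1 higher, against 3.71% and 3.63% of all genes. The key members Zbtb16, Gfra1, Kit and Stra8 all overlapped, with log2 fold changes of -0.0080, 0.34, -0.11 and -0.14. Dazl, a germ cell RNA-binding protein, was at 156, 160.0 and 170.5 CPM in Control and 156, 136 and 139.7 CPM after CW069 (log2 fold change -0.17 ± 0.07 SE, edgeR adjusted p = 0.666). Utf1, a chromatin protein of undifferentiated spermatogonia under 1 CPM in each library, stood the other way, at 0.414, 0.449 and 0.399 CPM in Control and 0.959, 0.958 and 0.738 CPM after CW069. Sertoli genes had 17 of 34 members on each side of 0. Cst12, a cystatin of the testis, was at 54.1, 58.1 and 54.7 CPM in Control and 50.1, 39.4 and 36.3 CPM after CW069 (-0.41 ± 0.12 SE, edgeR adjusted p = 0.524). Wt1 and Sox9, transcription factors that define Sertoli cells, overlapped, with Wt1 at 41.4, 42.0 and 39.8 CPM in Control and 42.5, 46.0 and 37.3 CPM after CW069. Blood-testis barrier genes had a median of -0.0053, endothelial genes 0.04, peritubular myoid genes 0.06 and collagen and matrix genes -0.03, and the sides of the endothelial and matrix medians depended on the library left out (-0.08 without Control 3 and 0.07 without Control 1).

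Genes of cell death and of cholesterol synthesis were examined beside these. In the list of Bcl2 family members, caspases and p53 targets 36 of 48 lay below 0, with 4 lower and 0 higher at an unadjusted p under 0.05, against 3.71% and 3.63% of all genes. Without overlap 9 (18.75%) were lower, against 7.24% of all genes. Its median was -0.07, and -0.11 without Control 2. The list holds genes of opposite action: Bcl2l11, which promotes death, had -0.77 (-0.44 without Control 1), and Bcl2l2, which opposes it, -0.18. The p53 targets Cdkn1a and Bax overlapped. Cholesterol synthesis had a median of -0.03, with Ebp, a sterol isomerase, at 20.9, 19.2 and 19.4 CPM in Control and 16.5, 14.6 and 14.5 CPM after CW069 (-0.38 ± 0.09 SE, edgeR adjusted p = 0.453). Insig1, which restrains cholesterol synthesis, was higher without overlap, at 15.8, 15.4 and 15.4 CPM in Control and 17.8, 19.2 and 17.4 CPM after CW069. Of 97 listed nuclear genes of oxidative phosphorylation, 81 were tested. The listed symbols that were absent from the counts were all of ATP synthase subunits. Of the 81, 53 lay below 0, 7 were lower and 1 higher at an unadjusted p under 0.05, against 3.71% and 3.63% of all genes. Without overlap 10 (12.3%) were lower, against 7.24% of all genes, and the median was -0.05 (-0.09 without CW069 1), nearer to 0 than the -0.20 of the branched-chain and fatty acid list. The 41 autophagy genes had a median of -0.01, with 0 higher and 1 lower at an unadjusted p under 0.05, against 3.63% and 3.71% of all genes. The lower one was Atg2a, a lipid transfer protein of autophagosome growth, at 164, 177 and 184 CPM in Control and 114, 115 and 122 CPM after CW069. The 41 heat shock and chaperonin genes had a median of -0.0075.

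Some large differences were smaller in CW069 3 than in CW069 1 and 2, or missing from it. Among 14963 genes averaging 1 CPM or more, 10 were 2-fold or more above every Control library in both CW069 1 and 2, and 10 were 2-fold or more below. In 3 of each set CW069 3 lay inside the Control range. The pair of CW069 1 and 3 had 1 gene above and 5 below, and that of CW069 2 and 3 had 1 and 4, with 0 in which the remaining library lay inside the Control range. Dchs1, a protocadherin that signals between cells through FAT4, was at 7.80, 6.61 and 7.32 CPM in Control and 21.4, 24.6 and 10.5 CPM after CW069, so CW069 3 was above Control but by less (log2 fold change 1.37 ± 0.26 SE, edgeR adjusted p = 0.396, and 1.67 with an edgeR adjusted p of 0.00105 without CW069 3). Galntl6, a glycosyltransferase gene picked after its values were seen, was at 18.8, 21.0 and 20.9 CPM in Control and 44.2, 42.6 and 16.8 CPM after CW069. Olfr112, an olfactory receptor gene, was at 20.02, 20.3 and 18.1 CPM in Control and 6.30, 6.36 and 24.5 CPM after CW069, and was low in CW069 1 and 2 alone. The tissue kallikreins of the Klk1b cluster, some of which Leydig cells express, did likewise in the other direction: Klk1b27 was at 15.3, 14.3 and 23.4 CPM in Control and 41.6, 42.2 and 15.0 CPM after CW069. Klk1b21 was at 31.0, 30.2 and 42.4 CPM in Control and 65.9, 67.6 and 37.5 CPM after CW069. These paralogs are closely similar and can share reads. Without CW069 3 edgeR called 5 genes, Dchs1, Galntl6, Specc1 and Olfr183 as higher and Olfr112 as lower. The treated group of that fit was CW069 1 and 2, the closest pair of libraries. The spread between them may be technical, which also limits the adjusted p of Dchs1 in that fit. A further 7 were called without Control 2: Galnt17, Jund, Mex3b, Gm5592, Gm2128 and Gm6866 as higher and Frzb as lower. The predicted gene Gm6866 was at 0.414, 13.5 and 0.466 CPM in Control and 17.7, 15.1 and 15.5 CPM after CW069, where Control 2 stood with the treated libraries.

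Set directly against the AZ82 libraries, which were given another dose (1 µM), CW069 libraries differed in 0 genes (0%) at an edgeR adjusted p under 0.05, with 787 (4.97%) at an unadjusted p under 0.05. Hsd3b6 differed in level between the inhibitors: AZ82 libraries stood at 55.3, 61.5 and 49.7 CPM, among the Control values, against 25.0, 25.9 and 23.9 CPM after CW069 (log2 CW069 over AZ82 -1.16 ± 0.16 SE, edgeR adjusted p = 0.255). In a fit of these 6 libraries alone it passed, with an edgeR adjusted p of 0.00163. Jund was at 45.8, 43.7 and 45.0 CPM after AZ82 and 61.1, 66.7 and 62.8 CPM after CW069 (0.50 ± 0.10 SE, edgeR adjusted p = 0.678), and passed in that fit as well at 0.0428. The fit called 5 genes higher and 3 lower in all. Acadsb was at 33.3, 35.8 and 35.8 CPM after AZ82 and Ivd at 33.4, 38.2 and 34.7 CPM, between Control and CW069 or level with the latter (-0.16 ± 0.07 SE, edgeR adjusted p = 0.977 and -0.11 ± 0.07 SE, edgeR adjusted p = 0.999). Star, at 139, 172 and 152 CPM after AZ82, and Cyp11a1, at 288, 321 and 308 CPM, also lay below the Control mean, whereas Cyp17a1, at 798, 955 and 752 CPM, had a log2 fold change of -0.04 over Control. The Leydig list had a median of -0.16 in AZ82 against Control, beside -0.13 for CW069, and both share the Control libraries. Zmiz2 and Ttc22, high after CW069, were at 350.4, 322 and 317 CPM and 9.02, 7.28 and 8.88 CPM after AZ82.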

How the data were processed

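RNA from whole testis was sequenced with a stranded mRNA kit, per the labels' protocols. The deposited values are raw read counts per gene, made by the authors with Trimmomatic, HISAT2 and HTSeq on GRCm39, per the submitters' processing notes. Settings and the strand option of counting are not given in the sources used here, so reads of overlapping genes may be mixed. Near-identical genes (Kifc1 and Kifc5b, Hsd3b6 and Hsd3b1, the Klk1b kallikreins, tubulins) can share reads. Library totals were 13856070 to 18102593 counts.

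All 9 libraries were fitted with edgeR 4.0.16 in R 4.3.3 (TMM scaling, low-count filter by group leaving 15834 genes, quasi-likelihood test, 6 residual degrees of freedom, Benjamini-Hochberg adjustment over all genes tested, threshold 0.05). CPM (edgeR's cpm) use TMM-scaled library sizes. DESeq2 1.42.0 and limma 3.58.1 (voom), other scalings and filters, the 6 libraries alone, a replicate block and leaving out libraries were alternatives. The pipeline was tested on simulated data. The labels name no pairing of libraries by replicate number.

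The libraries, members and gene lists were chosen with earlier results of these data known. Named were Kifc1 and Kifc5b, the 12 higher and 12 lower genes of smallest p averaging 1 CPM or more, with no overlap and a symbol that is not a predicted name, the key members of each list with up to 5 further members by p, and genes called by a tool. Others were chosen after their values were seen. Gene lists are described by counts and medians, with no set test. Symbols were matched to RefSeq for 19819 genes, and 5 more by synonym. Promoter windows are RefSeq's on GRCm38.p6, which is not the authors' build. Some genes of these lists are not reported here.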

Additional observations from a re-analysis of the deposited data

How the results depend on the processing

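With 3 libraries per group, the 95% interval of the median gene spans a factor of 1.21 to either side, from 1.13 over 100 CPM to 1.85 under 1 CPM. Of 157 genes followed under up to 17 alternatives, 2637 of 2666 values kept their sign and 28 passed the threshold. DESeq2 called 14 genes higher and 14 lower, with 319 lower at an unadjusted p under 0.05. Library sizes alone gave 1 gene called lower, 336 higher at an unadjusted p under 0.05, and medians of 0.030 (axoneme), -0.18 (Leydig), -0.25 (branched-chain and fatty acid) and -0.12 (antioxidant). With CW069 1 and 2 summed and no Control 3, the antioxidant median was -0.12. The cause of these shifts was not tested.

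With each library left out in turn, 0 to 6 genes were called higher and 0 to 1 lower, and 406 to 890 were higher and 426 to 766 lower at an unadjusted p under 0.05. Medians ran from -0.19 to -0.10 (Leydig), -0.12 to -0.058 (antioxidant), -0.23 to -0.16 (branched-chain and fatty acid), 0.04 to 0.10 (axoneme) and 0.12 to 0.25 (immediate early). Members at an unadjusted p under 0.05 ran from 7 to 12 (Leydig, lower) and 4 to 10 (immediate early, higher). For CW069 against AZ82, 0 to 3 genes were called higher and 0 to 1 lower, with 226 to 580 higher and 244 to 459 lower unadjusted, and the 6 libraries alone gave 5 called higher, 3 called lower and 709 lower unadjusted. These left-out fits against AZ82 were added after seeing the data.

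Sign changes were in 10 genes near 0. Library sizes alone gave Bckdk -0.012, Sox9 -0.046, Tnp1 -0.0093 and Wt1 -0.016. Summing CW069 1 and 2 gave Wt1 -0.0077, and also dropping Control 3 gave Wt1 -0.027, Tnp1 -0.29, Hook1 -0.13 and Kifc5b 0.062. Prm2 was 0.15 in limma-voom. Ranges with a library left out were -0.022 to 0.072 (Bckdk), -0.11 to 0.21 (Sox9), -0.31 to 0.23 (Tnp1), -0.045 to 0.11 (Wt1), -0.46 to 0.25 (Prm2), -0.14 to 0.14 (Hook1), -0.10 to 0.040 (Kifc5b), -0.19 to 0.15 (Adgre1), -0.029 to 0.30 (Hmox1) and -0.022 to 0.15 (Cdkn1a).

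With the replicate number as a block, edgeR called 0 genes higher and 0 lower, with 499 higher and 455 lower at an unadjusted p under 0.05, and Prm2 was 0.036. Deviations of same-numbered Control and CW069 libraries correlated at -0.018, -0.074 and -0.127, and those of differently numbered ones at -0.123 to 0.167. The labels name no pairing, and these values show none but cannot exclude a weak one.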

Other observations

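X-linked genes leaned lower after CW069. Of 695 tested genes placed on the X chromosome by RefSeq, 420 (60.4%) had a log2 fold change below 0, against 7603 of 15037 autosomal genes (50.6%), and the medians were -0.06 and -0.0023. The X-linked median ran from -0.09 to -0.0064 with a library left out, nearest to 0 without CW069 3, and -0.02 without Control 1.

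Some genes differed widely between libraries of the same group. Fcgr3, a low-affinity Fc receptor, was at 16.1, 15.3 and 65.7 CPM after CW069, 13.8, 14.4 and 16.2 CPM in Control and 17.4, 57.2 and 18.3 CPM after AZ82, so CW069 3 and AZ82 2 shared a level found in none of the other 7 libraries. Frzb, a secreted inhibitor of Wnt signalling, was at 50.9, 14.2 and 36.9 CPM in Control and 15.1, 18.5 and 16.5 CPM after CW069. After AZ82 it was at 18.5, 15.1 and 16.8 CPM, so Control 2 stood with the libraries of both inhibitors. Without Control 2, Frzb passed the edgeR test of CW069 against Control with an adjusted p of 0.00925.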
